A study of Mus musculus with 6 samples.

Results

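The genes described here are 9 drivers and products of the mesenchymal state: the transcription factors Twist1, Snai1, Snai2, Zeb1 and Zeb2, the mesenchymal cell markers Vim and Cdh2, and the matrix genes Fn1 and Sparc. They were found by gene symbol in a read table of 20896 transcripts, 1 per gene, and 9 of the 10 symbols looked for had a row. Col1a1 is not analysed here. All 9 had enough reads to enter the test, which covered 16683 transcripts. None of the 9 passed the test between protein kinase A (PKA) double knockout and control clones with all 6 libraries. The values behind that count were uneven. Twist1 was higher in every knockout clone than in any control clone, as were 5.17% of tested transcripts. Snai1, with 7 to 37 reads per library, was lower in every knockout clone than in any control clone, as were 5.68% of tested transcripts. Sparc averaged 23.0 CPM (counts-per-million) in the knockouts against 7.08 CPM in controls, with control clone 1 above dKO clone 2. Vim, Snai2, Zeb1 and Zeb2 were near the level of genes that a kidney cell should not express.

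In an epithelial-mesenchymal transition (EMT), epithelial cells lose their junctions and polarity and take on a migratory, matrix-producing state. Snail, Zeb and Twist family factors drive it, in large part by repressing E-cadherin and other epithelial genes, and the outcome is read from vimentin, N-cadherin, fibronectin and other matrix proteins. Transforming growth factor beta is the classic inducer, and in kidney tubules a partial form of the transition accompanies injury and fibrosis.

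The cells were mpkCCD cells, a mouse line from the cortical collecting duct, the kidney segment in which vasopressin controls water reabsorption. All 6 clonal lines derive from the mpkCCDc11 line: 3 are labelled control and 3 PKA dKO, that is, double knockouts of PKA, the kinase that cyclic AMP activates. Which genes were edited, and how the control lines were made, is not stated in the labels. Clones of both genotypes grew for 4 days on permeable supports with 2% serum, insulin, dexamethasone, triiodothyronine, epidermal growth factor, selenite and transferrin, then for 3 days without serum or those hormones in 0.1 nM dDAVP, an agonist of the vasopressin V2 receptor. No clone was left without dDAVP. Each clone gave 1 library of ribosomal RNA-depleted total RNA, so every p-value weighs the genotype against the spread between clones, and a clonal difference cannot be told apart from a library difference.

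Recovered reads per library ranged from 28596444 to 42515838. Prkaca, a PKA catalytic subunit gene, was 133, 75.9 and 90.6 CPM in control clones 1 to 3 and 6.65, 8.49 and 7.43 CPM in dKO clones 1 to 3, which goes with the labels. Control clone 1 and dKO clone 3, 1 of each genotype, stood apart from the other 4: they had no read for 2443 and 2363 transcripts, against 863 to 1045 elsewhere. As a yardstick for a silent gene, the 1351 olfactory and vomeronasal receptor transcripts of the table were used. Of these sensory receptor transcripts, 50.8% and 51.0% had a read in control clone 1 and dKO clone 3 and 81.9% to 87.4% in the other libraries, and their 95th percentile lay at 0.176 and 0.177 CPM per kilobase in those libraries and at 0.361 to 0.627 in the others. The part of this difference between libraries in the values of low-level members was not tested. In RNA from whole cultures, fewer cells that express a gene and less of its RNA per cell cannot be told apart.

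The promoter stretches of Twist1, Snai1, Sparc and the polarity gene Crb3 are shown because the first 2 are the genes whose clone values separated the genotypes, Sparc is the matrix gene with the larger difference, and Crb3, which encodes an apical polarity protein, is a known target of repression by Snail and Zeb factors. Each line runs 5′ to 3′ from 150 bases before to 10 bases after the transcription start, from RefSeq on GRCm38.p6. Twist1 is chr12:33957521-33957680 on the plus strand, Snai1 chr2:167538045-167538204 on the plus strand, Sparc chr11:55420071-55420230 on the minus strand and Crb3 chr17:57062081-57062240 on the plus strand. Capitals mark the E-box bound by Snail and Zeb factors (CACCTG, or CAGGTG on the other strand) and, in Twist1, the core site of the cyclic AMP response element (TGACG, or CGTCA on the other strand).
Twist1: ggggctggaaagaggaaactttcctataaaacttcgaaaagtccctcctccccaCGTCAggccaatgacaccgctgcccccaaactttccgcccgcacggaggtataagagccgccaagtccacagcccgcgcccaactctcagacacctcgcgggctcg
Snai1: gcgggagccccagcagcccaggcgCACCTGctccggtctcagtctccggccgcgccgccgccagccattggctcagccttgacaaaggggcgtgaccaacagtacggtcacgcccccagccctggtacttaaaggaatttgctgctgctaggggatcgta
Sparc: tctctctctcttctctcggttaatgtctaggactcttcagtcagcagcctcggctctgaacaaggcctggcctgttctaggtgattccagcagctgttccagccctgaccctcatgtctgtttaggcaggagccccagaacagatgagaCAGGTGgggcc
Crb3: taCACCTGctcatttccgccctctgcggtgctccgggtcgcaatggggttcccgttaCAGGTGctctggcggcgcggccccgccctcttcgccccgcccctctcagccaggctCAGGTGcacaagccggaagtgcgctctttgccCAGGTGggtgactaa
The search covered both strands from 250 bases before to 50 after the start. Twist1 held 1 core site, 96 bases before the start, and no E-box. Zeb2, not shown, also held a core site in overlapping RefSeq windows whose starts lie 4116 and 4142 bases from its listed start. That site lay 67 and 93 bases before those starts. The Zeb2 windows whose starts lie 47 and 7118 bases from the listed start held no core site. Snai1 held 1 E-box, 126 bases before the start. Sparc held 1, which began 1 base before the start and ran across it, and Crb3 held 4, at 148, 93, 37 and 5 bases before the start. Among 32851 promoter windows of the same length, 20.2% held the E-box and 20.8% the core site. The full element TGACGTCA, which contains the core site on both strands, occurred in 1.79% of windows and in none of the promoters found for members. RefSeq entries were found for 5 of the 9 members. A match describes these letters and is not a measured binding site.

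Twist1 encodes a basic helix-loop-helix factor of mesoderm development and EMT. The gene has 2 exons and lies on the plus strand of chromosome 12 at 33957671-33959817 (GRCm38). Its level was 0.581, 4.06 and 4.67 CPM in control clones 1 to 3, from 21, 124 and 203 reads. In dKO clones 1 to 3 it was 9.01, 8.996 and 7.49 CPM, from 362, 284 and 267 reads. All knockout clones lay above all control clones and close to each other, whereas control clone 1 was far below the other 2 controls. The means were 3.11 ± 2.21 CPM for controls and 8.50 ± 0.874 CPM for the knockouts (SD, n = 3 each), and the fitted difference was 1.88 on the log2 scale (SE 0.62, 3.69-fold, 95% interval 1.44 to 9.43). The adjusted p was 0.471 in limma. In edgeR's quasi-likelihood test the log2 difference was 1.45 (adjusted p = 0.580), and in DESeq2 it was 1.44 (adjusted p = 0.150). None of these passed the threshold of 0.05 over all genes. With limma 0.168% of all tested transcripts passed that threshold, and 6.25% had an unadjusted p below it, as 2 of the 9 members did (Twist1 and Sparc). Every dKO value lay above every control value for 5.17% of transcripts, and for Twist1 alone among the members.

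The size of the Twist1 difference rested on control clone 1. Without that clone the log2 difference was 0.95 (adjusted p = 0.124, limma). The 4 libraries that did not stand apart gave 1.05 with an adjusted p of 0.0163 in limma, in a comparison in which 518 of 17252 transcripts, 3%, passed. Between the pair that stood apart, dKO clone 3 exceeded control clone 1 by 3.57 on the log2 scale. Genes on chromosome 12 had a median deviation of -0.26 (log2) in control clone 1, over 463 genes, and of -0.004 to 0.08 in the other clones. The part of this chromosome-wide deviation in the Twist1 value was not tested. In the authors' deposited table, Twist1 had a log2 fold change of 1.38 and a false discovery rate of 0.0973.

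Snai1, which encodes Snail, a zinc-finger repressor of E-cadherin, had the opposite arrangement at a low level. The gene has 3 exons on chromosome 2 at 167538195-167542814, plus strand. Control clones 1 to 3 had 0.664, 0.753 and 0.852 CPM, from 24, 23 and 37 reads, and dKO clones 1 to 3 had 0.423, 0.222 and 0.365 CPM, from 17, 7 and 13 reads. All knockout clones lay below all controls, as did 5.68% of tested transcripts, and the 2 libraries that stood apart kept that order. The means were 0.756 ± 0.0941 and 0.337 ± 0.104 CPM (SD, n = 3 each), with a log2 difference of -1.08 (SE 0.64, 95% interval -2.496 to 0.33) and an adjusted p of 0.956 in limma. Without both libraries that stood apart the difference was -1.23, with an adjusted p of 0.425 in limma. Snai1 exceeded the 95th percentile of the sensory receptors in 3 of 6 libraries. Twist1 and Snai1 were thus the only members, 2 of 9, whose genotypes did not overlap, and their differences had opposite signs.

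**Figure D1:**
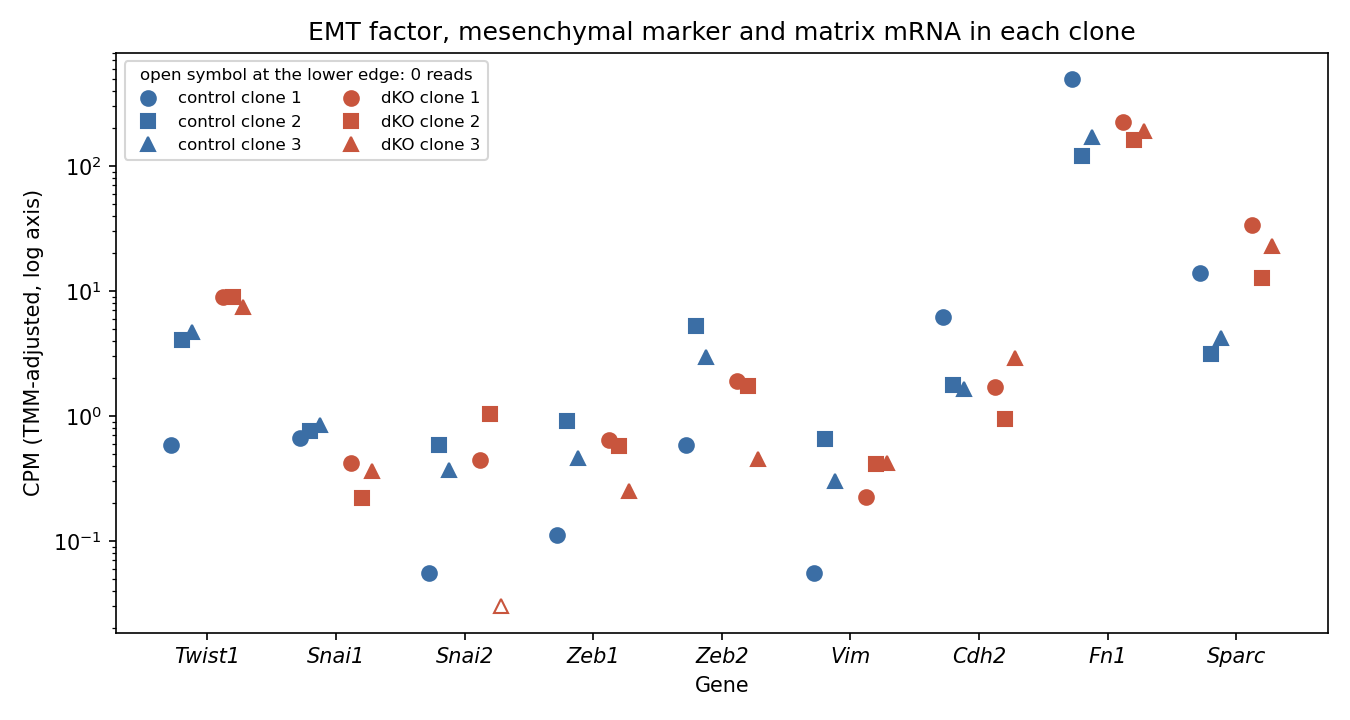
Level of each of the 9 genes in every clone, in CPM on a log axis, with control clones and dKO clones as separate groups and 1 point per library. An open symbol marks 0 reads. The groups separate for Twist1 (dKO above) and Snai1 (dKO below) and overlap for the other 7 genes.

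In Snai2, Zeb1 and Zeb2 the genotypes overlapped. Snai2, which encodes Slug, the second Snail family repressor (3 exons, chromosome 16, 14705852-14709395, plus strand), was 0.0553, 0.589 and 0.368 CPM in controls and 0.448, 1.05 and 0 CPM in dKO clones. The lowest values, 2 reads and 0 reads, were those of control clone 1 and dKO clone 3, and 3 reads in dKO clone 3 would be 0.0842 CPM. The fitted log2 difference was 0.01 with an SE of 1.22. Zeb1 encodes a zinc-finger homeobox repressor (8 exons, chromosome 18, 5591860-5775467, plus strand) and was 0.111, 0.917 and 0.461 CPM in controls and 0.647, 0.570 and 0.253 CPM in dKO clones. Again the libraries that stood apart were the lowest of their genotype, with 4 and 9 reads. The log2 difference of Zeb1 was 0.23 (SE 0.84), and 3 genes annotated within its span add uncertainty, since no source used here says whether counting used strand.

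Zeb2, the paralogue of Zeb1, had more reads than either. It has 11 exons on the minus strand of chromosome 2 at 44983632-45117395, where 5 other annotated genes overlap it, among them the antisense transcript Zeb2os. Control clones 1 to 3 had 0.581, 5.21 and 2.97 CPM (21, 159 and 129 reads) and dKO clones 1 to 3 had 1.92, 1.74 and 0.449 CPM (77, 55 and 16 reads). Within the 4 libraries that did not stand apart both controls exceeded both knockouts, and the other 2 libraries were lowest. The log2 difference was -0.83 (SE 0.77) over 6 libraries and -1.08 over those 4, with adjusted p-values of 1.00 and 0.116 in limma. It was -1.72 without control clone 1 and -0.19 without control clone 2 or without dKO clone 3. Per length, Zeb1 and Zeb2 stayed below the 95th percentile of the sensory receptors in all 6 libraries, and Snai2 exceeded it in 1, dKO clone 2.

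Vimentin and N-cadherin, the usual protein markers of mesenchymal cells, were low. Vim encodes the intermediate filament of mesenchymal cells (9 exons, chromosome 2, 13573952-13582826, plus strand). It had 2, 20 and 13 reads in controls and 9, 13 and 15 reads in dKO clones, that is 0.0553, 0.655 and 0.299 CPM against 0.224, 0.412 and 0.421 CPM. The genotypes overlapped, and only dKO clone 3 exceeded the sensory receptor percentile. The log2 difference was 0.39 (SE 0.92), and it was -0.34 without control clone 1.

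Cdh2, which encodes N-cadherin, lies on the minus strand of chromosome 18 at 16588877-16809246 and has 16 exons. Control clones 1 to 3 had 6.22, 1.77 and 1.63 CPM (225, 54 and 71 reads), and dKO clones 1 to 3 had 1.72, 0.9503 and 2.92 CPM (69, 30 and 104 reads). The highest values were those of the 2 libraries that stood apart, the reverse of Snai2, Zeb1 and Zeb2, and those were the only 2 libraries in which Cdh2 passed the sensory receptor percentile. The means were 3.21 ± 2.61 and 1.86 ± 0.992 CPM (SD, n = 3 each), with a log2 difference of -0.62 (SE 0.57) and an adjusted p of 1.00 in limma. Without control clone 1 the difference was -0.01.

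**Figure D2:**
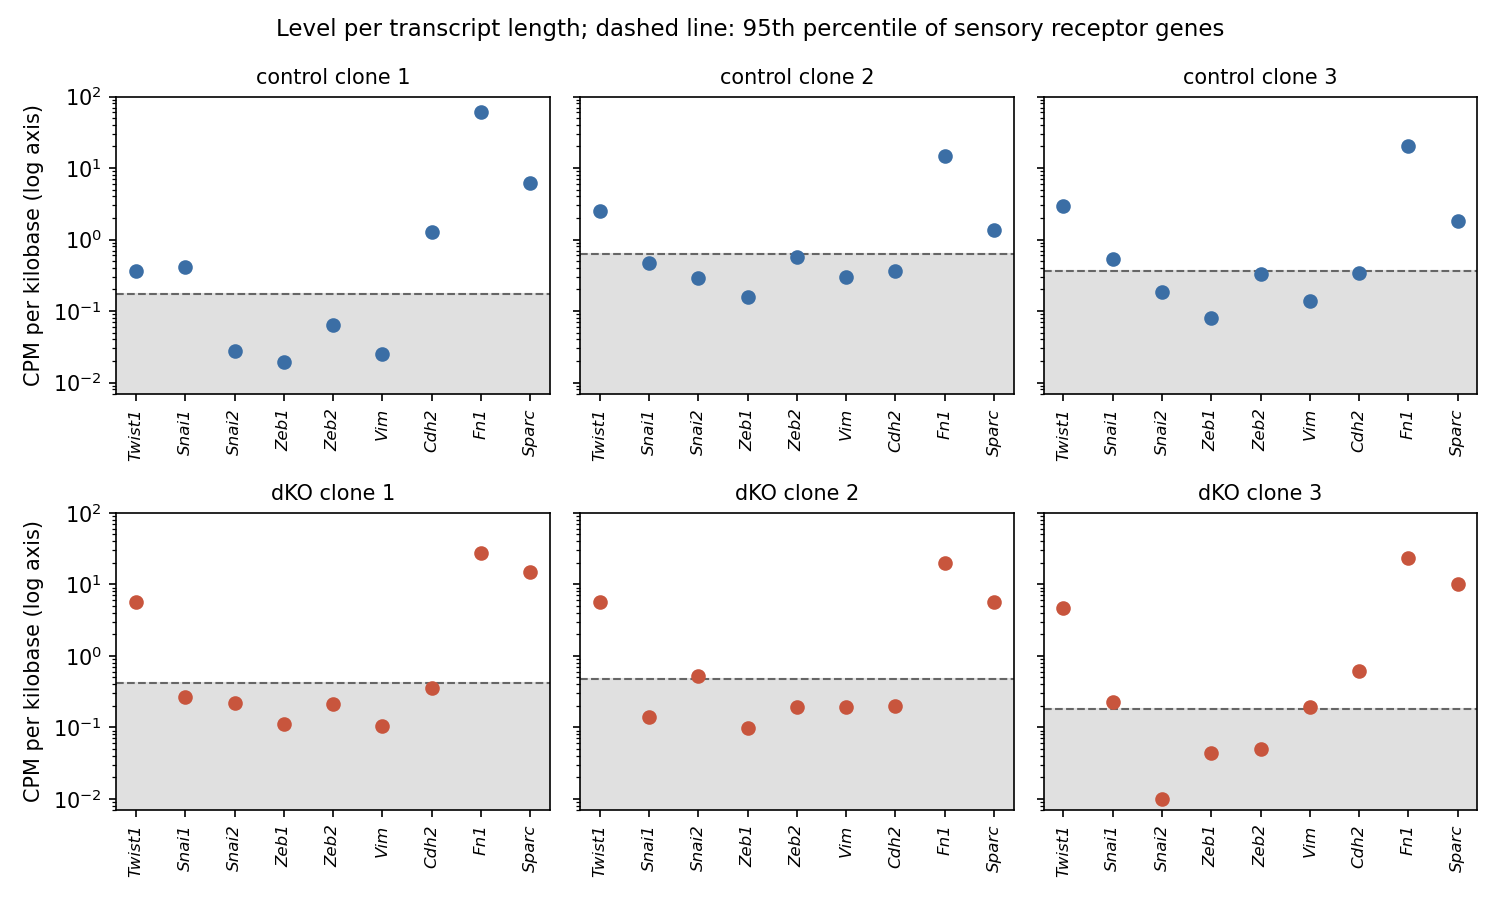
Level of each gene per kilobase of transcript (CPM per kilobase, log axis) in each of the 6 libraries, beside the 95th percentile of 1351 olfactory and vomeronasal receptor transcripts in the same library; Snai2 in dKO clone 3, with 0 reads, is drawn at 0.01. Fn1, Sparc and Twist1 lie above the percentile in every library, Zeb1 and Zeb2 in none, and the other 4 genes in 1 to 3 libraries.

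Both matrix genes were above the sensory receptor percentile in every library. Sparc encodes osteonectin, a collagen-binding matrix glycoprotein, from 10 exons on the minus strand of chromosome 11 at 55394500-55420080. It was 13.9, 3.14 and 4.19 CPM in control clones 1 to 3 (503, 96 and 182 reads) and 33.7, 12.7 and 22.8 CPM in dKO clones 1 to 3 (1353, 400 and 812 reads). The knockout clones were high and the controls low except that control clone 1 lay above dKO clone 2, so the genotypes overlapped by 1 clone. The means were 7.08 ± 5.94 and 23.0 ± 10.5 CPM (SD, n = 3 each), and the log2 difference was 1.90 (SE 0.49, 3.73-fold, 95% interval 1.75 to 7.92). This did not pass over all genes, with adjusted p-values of 0.267 in limma, 0.362 in edgeR's quasi-likelihood test and 0.396 in DESeq2.

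The call for Sparc turned on control clone 1. Without it, the log2 difference was 2.54 and the adjusted p in limma 0.00108, in a comparison in which 0.836% of transcripts passed. In the 4 libraries that did not stand apart the difference was 2.499 with an adjusted p of 1.16e-06 (limma), and in the pair that did, 0.71. All of these differences had the same sign. In the authors' deposited table, Sparc had a log2 fold change of 1.74 and a false discovery rate of 0.0057, and was the only one of the 3 members listed there below 0.05, against 3.47% of that table's transcripts. Chromosome 11 genes had median deviations of -0.08 to 0.06 (log2) in the 6 clones. The part of gene dosage at the Sparc locus was not tested.

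Fn1 encodes fibronectin, the matrix protein that integrins bind, and had the highest level per kilobase of the members. It has 46 exons on the minus strand of chromosome 1 at 71585524-71653175, with 1 annotated gene, Apol7d, on the opposite strand within its span. It was 494, 120.5 and 169 CPM in controls (17869, 3679 and 7353 reads) and 227, 160.5 and 191 CPM in dKO clones (9101, 5067 and 6803 reads). Control clone 1 was highest and control clone 2 lowest, with all knockout clones between them. The means were 261 ± 203 and 193 ± 33.1 CPM (SD, n = 3 each). The log2 difference of -0.18 (SE 0.40, 95% interval -1.05 to 0.69) changed sign without control clone 1, to 0.42, and was 0.42 in the 4 libraries that did not stand apart (adjusted p = 0.219, limma). In the authors' deposited table it was -0.40 with a false discovery rate of 0.724. Each library had at least 3679 reads of Fn1.

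**Figure D3:**
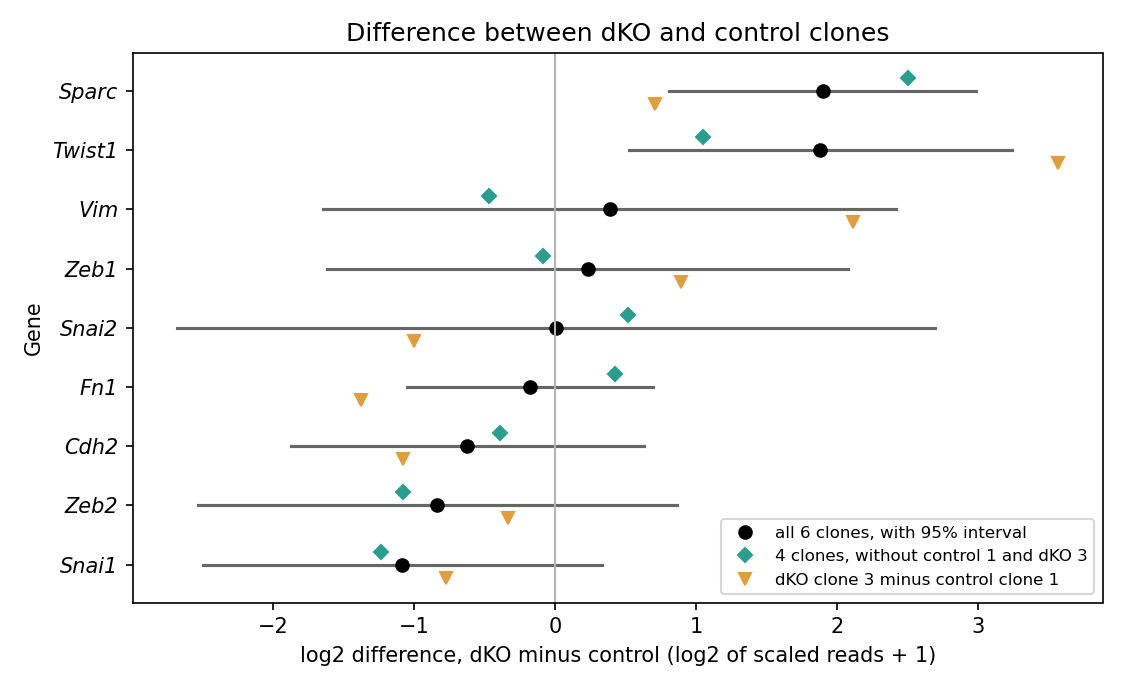
Log2 difference, dKO minus control, of each gene with its 95% interval from limma over 6 libraries. Beside it is the same difference in the 4 libraries left without control clone 1 and dKO clone 3. A further marker gives dKO clone 3 minus control clone 1. The 6-library intervals of Twist1 (1.88) and Sparc (1.90) exclude 0, before adjustment over all genes, while Fn1, Zeb1 and Vim change sign between the fits.

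Across the members, 5 log2 differences were positive and 4 negative, with a median of 0.01 against a median of 0.00 over all tested transcripts. Per kilobase of transcript, the mean levels over 6 libraries ran from Fn1 (27.6 CPM per kilobase) through Sparc (6.61), Twist1 (3.60), Cdh2 (0.527), Snai1 (0.339), Zeb2 (0.236), Snai2 (0.206) and Vim (0.158) to Zeb1 (0.0852). Only the first place held in every library: Fn1 exceeded Sparc in 6 of 6 libraries. Sparc exceeded Twist1 in 3 of 6, and each later neighbour exceeded the next in 4 or 5 of 6 libraries, so those places did not hold in every clone. Differences in level between genes were not tested. By deposited FPKM, Fn1 stood at percentiles 74.5 to 93.5 of all transcripts, Sparc at 49.5 to 75.3, Twist1 at 43.8 to 59.5 and Zeb1 at 9.65 to 18.3. The genes most like the 4 members of highest CPM, by Pearson correlation of log2 levels over the 6 libraries, were Rnf169 (0.994) and Isyna1 (0.992) for Fn1, Kdelc2 (0.991) and Xrcc5 (0.989) for Sparc, Mettl15 (0.987) and Tmem194 (0.986) for Twist1, and Srebf2 (0.997) and Pitpnm2 (0.996) for Cdh2. With 6 libraries and every gene of at least 5 CPM searched, these are descriptions only.

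The epithelial genes that EMT factors are known to repress were detected in all clones. All 18 of the list lay above the sensory receptor percentile in every library, and none passed the limma test (6 positive and 12 negative log2 differences, median -0.03). Cdh1, which encodes E-cadherin, was 1009, 801 and 793 CPM in control clones 1 to 3 and 742, 827 and 1010 CPM in dKO clones 1 to 3. Its log2 difference was -0.02 (SE 0.18, 95% interval -0.40 to 0.37) and the groups overlapped. Crb3, with the 4 E-boxes shown above, differed by -0.03 (SE 0.14). Ovol2, which encodes a zinc-finger repressor of Zeb1 that maintains the epithelial state, was 6.80, 5.11 and 7.05 CPM in controls and 4.08, 3.04 and 3.67 CPM in dKO clones. All dKO values of Ovol2 were below all controls, with a log2 difference of -0.80 (SE 0.26) and an adjusted p of 0.473 in limma. Krt19, a simple-epithelium keratin, and Grhl2, an activator of epithelial genes, differed by -0.31 and -0.27, with adjusted p-values of 0.711 and 0.779 in limma. Their dKO values, and those of Krt18 and Esrp1, also lay below all controls, as did 5.68% of tested transcripts. Those of Ocln lay above all controls, as did 5.17% of tested transcripts. Ovol2, Krt19 and Grhl2 were the 3 of the list with an unadjusted p below 0.05 in limma, against 6.25% of tested transcripts.

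**Figure D4:**
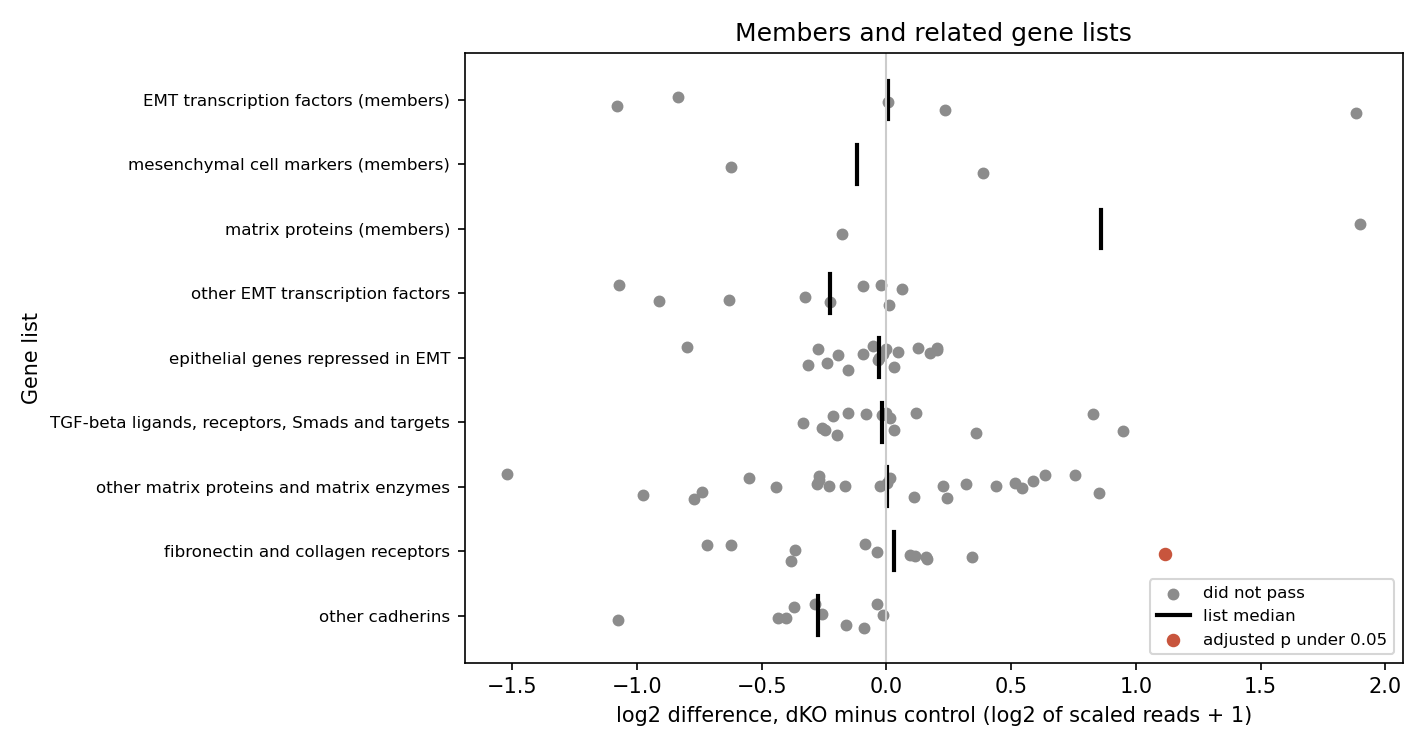
Log2 difference, dKO minus control, of every tested gene of the member groups and of 6 related lists, 1 point per gene with a bar at each list's median. The medians of the 6 lists lie between -0.27 (other cadherins) and 0.03 (fibronectin and collagen receptors). Itgb6, at 1.11, is the only gene of the 6 lists that passed the test, which 0.168% of all tested transcripts passed.

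Of 9 other EMT-related transcription factors tested, none passed, and 2 differences were positive and 7 negative (median -0.23). Tcf3, which encodes E2A, a dimer partner of Twist1, was 177 to 213 CPM over the clones. Sox9, a developmental factor, differed by -0.33 (SE 0.23), and Snai3, the third Snail family gene, by -0.63 (SE 0.46). Of 10 other cadherins none passed and all 10 differences over 6 libraries were negative, with a median of -0.27. In the 4 libraries Cdh5 (0.26), Cdh13 (0.23) and Cdh15 (0.06) were positive, and 5 of the 10 exceeded the sensory receptor percentile in no library. P-cadherin (Cdh3) and T-cadherin (Cdh13) differed by -0.29 (SE 0.20) and -0.37 (SE 0.37). Cdh16, the kidney-specific cadherin, was 1239 to 2204 CPM in controls and 1221 to 1658 CPM in the knockouts.

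Of 15 transforming growth factor beta pathway genes tested, 6 differences were positive and 9 negative (median -0.02), and none passed with 6 libraries. The 2 lowest p-values of the list were those of ligand genes. Tgfb2 was 12.1, 5.60 and 5.41 CPM in controls and 12.8, 14.2 and 14.7 CPM in dKO clones. All its knockout values lay above all its control values, as for 5.17% of tested transcripts, with control clone 1 nearest to them. Its log2 difference was 0.95 (SE 0.29, adjusted p = 0.419 in limma). Tgfb3 was 16.9, 14.8 and 8.17 CPM against 29.6, 25.7 and 15.3 CPM, with dKO clone 3 below control clone 1 and a log2 difference of 0.83 (SE 0.30, adjusted p = 0.568 in limma). In the 4 libraries that did not stand apart both passed, at 1.29 and 1.33 (adjusted p = 0.00053 and 0.000118, limma). Of all transcripts, 3% passed in that comparison. Between the pair that stood apart Tgfb2 differed by 0.28 and Tgfb3 by -0.15. Ctgf, a matrix-associated target of the pathway, differed by -0.34 (SE 0.17, adjusted p = 0.876 in limma). 

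Among 25 other matrix proteins and matrix enzymes, 13 differences were positive and 12 negative (median 0.00), and none passed with 6 libraries. The basement membrane chain gene Lamc1 was 261, 191 and 178 CPM in controls and 297, 292 and 298 CPM in dKO clones. All knockouts lay above all controls, as for 5.17% of tested transcripts. The log2 difference was 0.51 (SE 0.15), with an adjusted p of 0.405 in limma. The collagen prolyl hydroxylase gene P4ha1 differed by 0.44 (adjusted p = 0.379, limma), and Mmp14, which encodes a membrane-bound matrix protease, by -0.55 (adjusted p = 0.683, limma). In the 4 libraries, in which 3% of all transcripts passed, 5 of the 25 were called, all higher in dKO: Lamc1, P4ha1, Spp1 and the collagen IV genes Col4a1 and Col4a2. The matrix phosphoprotein gene Spp1 differed by 0.54 (SE 0.82) over 6 libraries and by -2.76 between the pair that stood apart. Of the 25, 10 did not reach the sensory receptor percentile in any library.

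Of 12 fibronectin and collagen receptor genes 1 passed with 6 libraries, as did 0.168% of all tested transcripts. Itgb6, the beta subunit of an integrin that binds fibronectin and activates latent transforming growth factor beta, rose from 201, 129 and 121 CPM in control clones to 322, 291 and 340 CPM in dKO clones. Its log2 difference was 1.11 (SE 0.18) with an adjusted p of 0.0495 in limma and 0.0661 in edgeR's quasi-likelihood test. Its call was known from an earlier analysis of these data when the list was made. Itga1, the collagen receptor alpha chain gene, differed by -0.62 (SE 0.20, adjusted p = 0.473 in limma), and the hyaluronan receptor gene Cd44 by -0.72 (SE 0.39, adjusted p = 0.930 in limma). Itga1 was lower in every dKO clone than in any control clone, as were 5.68% of tested transcripts. In the 4 libraries, 3% of all transcripts passed. There Itga1 passed as lower at -0.87 (adjusted p = 0.000921, limma) and Itgb6 as higher at 1.30 (adjusted p = 7.45e-08, limma).

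Markers of other cell types were measured beside these values. The summed level of 10 fibroblast and smooth muscle genes was 7.47 to 16.9 CPM in controls and 7.01 to 15.2 CPM in the knockouts. Only Tagln and Myh11 of that list exceeded the sensory receptor percentile in every library, 6 exceeded it in none, and Col3a1 had 0 reads in dKO clone 3. The 6 endothelial genes summed to 1.91 to 7.66 and 1.21 to 6.37 CPM, with none above the percentile in all libraries. The 4 leukocyte genes summed to 31.2 to 43.8 and 19.96 to 28.3 CPM, most of it Cd14. The 12 collecting duct epithelium genes summed to 6577 to 8459 CPM in controls and 6411 to 7015 CPM in the knockouts. Krt8, Krt18, Cdh1 and Epcam are part of that sum and also of the list of epithelial genes that EMT factors repress. The sum therefore goes with an epithelial cell and is not specific to the collecting duct. Of the 12 genes, 11 exceeded the sensory receptor percentile in every library. Elf5 was 0.337 to 1.06 CPM over the clones and exceeded it in 2 libraries. The vasopressin-regulated water channel gene Aqp2 fell by 6.30 on the log2 scale (SE 0.35, adjusted p = 1.62e-05 in limma).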

How the data were processed

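Total RNA (262 ng) was depleted of ribosomal RNA and made into stranded libraries, per the labels' protocols. Tools listed, without roles, in the submitters' processing notes are HOMER 4.8, STAR 2.5.2a, edgeR and SAMtools, with build GRCm38.p5. The authors' deposited read columns are a signal: reads scaled to a common total. For each, dividing each library by its smallest step returned whole reads (100% within 0.01). The deposited FPKM values and transcript lengths are the authors' own. Per the file headers, the comparison the authors deposited gives false discovery rates, p-values, log2 fold changes and a mean log2 CPM.

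The test first planned was edgeR's quasi-likelihood test on counts; because the values are scaled reads, limma-trend (limma 3.58.1, R 4.3.3) was used instead, on log2(TMM-adjusted scaled reads + 1), TMM factors 0.909 to 1.07 (edgeR 4.0.16). A pseudocount of 1 scaled read is about 0.0550 CPM, so fold changes of low genes depend on it and are not those of a count model. filterByExpr (10 reads, total 15) kept 16683 transcripts and left out 4213. P-values were adjusted by Benjamini and Hochberg over all tested transcripts, threshold 0.05. CPM used recovered reads and TMM-adjusted library sizes. Alternatives were edgeR and DESeq2 1.42.0 on whole reads, other scalings, pseudocounts and filters, a replicate block, leaving out clones, and a term for the 2 libraries that stood apart. Same-numbered clones correlated at -0.36, 0.64 and -0.34 in their deviations from the group means, so the numbers were not taken as pairs. The scripts were tested on simulated data. Counts between replicates differed by more than sampling noise (chi-square per degree of freedom 17.9 to 62.4).

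Members and lists were chosen with earlier results of these data known. Genes named are all members and, in each list, the 3 of lowest p, besides those named for their role; 1 gene that this rule names is not reported here. Ctgf is listed under 1 of its 2 symbols, and Col1a1, Smad2 and Sox4 are not analysed here. Coordinates are those of the deposited table, and exons and overlapping genes come from GENCODE M21.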

Additional observations from a re-analysis of the deposited data

How the results depend on the processing

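Over all genes the test called 28, against 213 by DESeq2, 17 with no further scaling, 196 with the replicate block, 518 in 4 libraries, 71 with a term for the libraries that stood apart, and 11 to 146 when 1 clone was left out. Of the members it called 0, against 2 with the replicate block (Twist1, adjusted p = 0.0344, and Sparc, adjusted p = 9.23e-05, limma), 2 in the 4 libraries (the same 2 genes) and 0 to 1 with 1 clone left out, the 1 being Sparc without control clone 1. The cause was not tested; the numbers of the clones pair nothing in the labels, and the block changed no other member's call.

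The differences of Twist1, Snai1, Zeb2, Cdh2 and Sparc kept their sign in every alternative run. Snai2 reversed with DESeq2 size factors (-0.0014), with a pseudocount of 0.5 (-0.17) and with clones left out (-0.90 to 1.27). Zeb1 reversed in edgeR (-0.0090), DESeq2 (-0.020), the 4 libraries (-0.087) and without control clone 1 (-0.46 to 0.81 over the clones left out). Vim reversed in the 4 libraries (-0.47) and without control clone 1 (-0.34 to 1.00). Fn1 reversed in the 4 libraries (0.42) and without control clone 1 (-0.60 to 0.42). A mean of at least 1 CPM left out Snai1, Snai2, Zeb1 and Vim, which then have no value. Depth limits Snai1, Snai2, Zeb1 and Vim, where 3 reads are 0.0691 to 0.0982 CPM.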
